A study of Mus musculus with 12 samples.

Results

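The kallikrein-related serine proteases Klk5, Klk6, Klk7, Klk8, Klk9, Klk10, Klk11, Klk13 and Klk14, and Spink5, the gene of their inhibitor LEKTI, were examined in mouse back skin. These 10 genes were chosen by symbol, and all 10 were found among the 18505 genes of the deposited table. RNA-seq had been carried out on 12 skin samples taken on day 10, 4 from each of 3 groups of wild-type male BALB/c mice. The mice were 5 to 6 weeks old at the start. The control group is labelled "white space handling" and, by the study's methods, received petroleum jelly on the shaved back. The IMQ + NS group received imiquimod (IMQ) cream, a Toll-like receptor agonist used to induce psoriasis-like lesions, for 6 h a day, followed by a cover of saline (NS). The IMQ + BZLF group received the same cream followed by a cover with Banzhilian formula (BZLF), a mixture of traditional Chinese medicinal materials. Both covers were held in place by gauze and polyurethane film, and the methods name no cover for the controls. In comparisons with control, imiquimod and the cover therefore cannot be told apart. Which of the 3 BZLF doses of the study was given to the sequenced mice is not stated in the sources used here. No label ties a sample to a litter or cage, so p-values measure the spread between these 4 samples per group.

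Kallikreins are secreted by keratinocytes of the upper epidermis as inactive zymogens and become active when a short propeptide is removed, by another kallikrein or by other serine proteases. In the stratum corneum they cut the corneodesmosome proteins that hold dead cells together, and so bring about desquamation. Spink5 is expressed in the same layers; its product LEKTI inhibits several of these proteases, and loss of SPINK5 causes Netherton syndrome, in which the skin sheds too early.

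The 9 protease genes lie within 160.8 kb of mouse chromosome 7, with Klk12, which is not among the 10, between Klk13 and Klk11. They run from 43690418 to 43851181 in GENCODE M21 on GRCm38 (mm10, the build named in the submitters' processing notes), and are on the + strand. Klk14 spans chr7:43690418-43695536, Klk13 chr7:43712567-43727534 and Klk11 chr7:43774604-43779263. They are followed by Klk10 at chr7:43781035-43785410, Klk9 at chr7:43791891-43796757 and Klk8 at chr7:43797577-43803826. Klk7 at chr7:43811294-43816359, Klk6 at chr7:43824499-43832030 and Klk5 at chr7:43841971-43851181 close the row. Spink5 lies on another chromosome. Every value below is the level of the whole gene, in FPKM.

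The promoters of Klk6 and Klk13, the members with the largest differences between the groups, and of Klk5, the neighbour of Klk6 that was called in none of the comparisons, are shown as the 250 bases before the RefSeq start (GRCm38.p6, + strand, 5′ to 3′). Capitals mark CACCC, a motif bound by Krüppel-like factors, or its reverse complement GGGTG.
Klk6, chr7:43824294-43824543: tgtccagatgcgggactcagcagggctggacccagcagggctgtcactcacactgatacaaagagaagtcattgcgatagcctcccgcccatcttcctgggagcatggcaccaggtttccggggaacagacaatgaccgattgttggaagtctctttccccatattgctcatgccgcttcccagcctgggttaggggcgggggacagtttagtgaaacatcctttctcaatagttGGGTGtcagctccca
Klk13, chr7:43712317-43712566: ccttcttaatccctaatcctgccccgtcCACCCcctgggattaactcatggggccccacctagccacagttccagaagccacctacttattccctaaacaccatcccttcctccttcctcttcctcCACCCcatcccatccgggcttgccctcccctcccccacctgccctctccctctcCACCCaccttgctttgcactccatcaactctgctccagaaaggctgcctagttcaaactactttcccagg
Klk5, chr7:43842019-43842268: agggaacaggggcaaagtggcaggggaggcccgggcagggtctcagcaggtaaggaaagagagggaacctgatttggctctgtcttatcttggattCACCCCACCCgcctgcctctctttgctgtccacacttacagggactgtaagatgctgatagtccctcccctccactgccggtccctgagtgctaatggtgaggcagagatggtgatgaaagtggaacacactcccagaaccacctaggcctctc
For Klk5 and Klk6 the RefSeq starts used, 43842269 and 43824544, lie past the GENCODE starts given above. The Klk5 stretch thus lies wholly within the GENCODE span of Klk5, and the end of the Klk6 stretch within that of Klk6. Klk13 has the same start in both. In the Klk6 stretch, the first of 2 RefSeq starts of this gene, the capitals begin 15 bases before the start, within the GENCODE span. Klk13 held matches 222, 124 and 70 bases before its start, and Klk5 held a pair of matches in direct succession, 154 and 149 bases before its start. RefSeq gave 11 windows for the 9 protease genes, each from 250 bases before to 50 bases after a start, and 8 of the 11 held CACCC on either strand, against 57.5% of 32851 mouse promoter windows of the same length. The AP-1 motif TGANTCA was found in 0 of the 11 windows (7.81% of all windows), and the STAT motif TTCNNNGAA in 1, that of Klk10, 238 bases before the start (8.30% of all windows). These matches are letters in a window; neither Klk6 and Klk13 nor Klk5 was set apart by the presence of CACCC.

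FPKM is a read count divided by transcript length and library size, so levels of different genes can be set side by side. The FPKM of a sample added up to between 444660 and 506622, and 16649 to 16941 genes were above 0 in a sample; the number of reads behind each value was not recovered. Each pair of groups was compared with limma on log2(FPKM + 0.1) over 15288 genes, and a gene was called where its Benjamini-Hochberg adjusted p was under 0.05 and its log2 fold change was beyond 1 in either direction. All 10 members passed the filter on low values, for which the mean over all 12 samples had to reach 0.1 FPKM. Control replicate 2 stood apart from the other controls: its inner root sheath markers summed to 1959 FPKM against 19.3 to 57.5 in the others, and its correlation with its group averaged 0.953 against 0.9745 to 0.978. Member levels, shares and fold changes that moved by more than 1.5 times without this sample are also given without it.

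In control skin Klk7 was the most abundant member, at a mean of 45.7 FPKM ± 6.79 (SD, n = 4), followed by Spink5, Klk10 and Klk5, and the sample ranges of these neighbours overlapped. Klk8 at 16.6 FPKM ± 0.928 stood below Klk5 and above Klk6 without overlap. Klk6, Klk11, Klk9 and Klk13 followed, each overlapping the next, and Klk14 was last at 0.0928 FPKM ± 0.114. Without control replicate 2 the control mean was 0.0392 FPKM for Klk14 and 0.354 FPKM for Klk13. In the IMQ + NS group the order was Klk7, Klk6, Klk10, Klk8, Klk9, Spink5, Klk13 and Klk5, all neighbours overlapping, then Klk11 and Klk14. In that order Klk6 had moved from sixth to second place. In the IMQ + BZLF group Klk7 and Klk10 stood clear of the rest, and Spink5, Klk6, Klk8 and Klk5 overlapped at means between 25.1 and 29.3 FPKM.

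**Figure D1:**
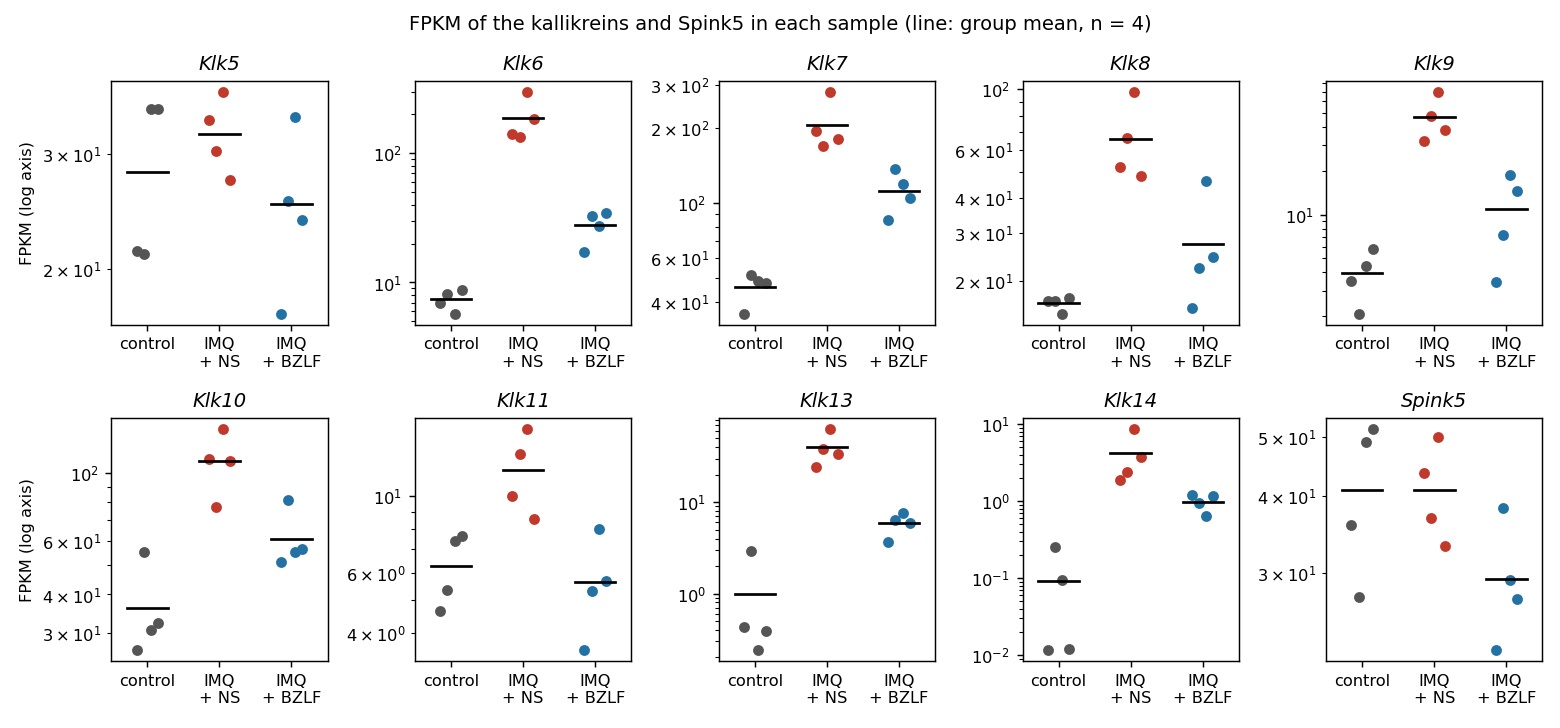
FPKM of the 10 members in every sample, on a log axis, by group; each point is 1 sample and the black line is the mean of 4. For Klk6, Klk7, Klk13 and Klk14 the 3 groups are fully separated, with the IMQ + NS samples highest, while the groups overlap for Klk5 and Spink5.

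The comparison of IMQ + NS with control skin asks which of these genes differed in the psoriasis-like lesion. Of the 10 members 7 were higher and 0 were lower: Klk6, Klk7, Klk8, Klk9, Klk10, Klk13 and Klk14. Over all genes tested 11.4% were called higher and 11.0% lower. The 4 IMQ + NS samples all lay above the 4 controls for 8 members, the same 7 and Klk11, against 23.7% of all genes. The median log2 fold change of the 10 members was 2.05, beside 0.053 over all genes tested. Leaving out control replicate 2 left the count at 7. At an unadjusted p under 0.05, limma had 8 members higher and 0 lower, against 32.5% and 29.1% of all genes tested.

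Klk6 encodes a trypsin-like protease that is also known from myelin turnover in the brain. Its FPKM in control replicates 1 to 4 was 6.96, 8.18, 5.74 and 8.80, and in IMQ + NS skin 140.0, 133, 297 and 184. The groups were far apart, with IMQ + NS replicate 3 highest of all. The log2 fold change was 4.59 (SE 0.25), that is 24.1-fold, with an adjusted p of 3.08e-06 in limma.

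Klk13, another trypsin-like protease of stratified epithelia, was close to absent from control skin, at 0.434, 2.89, 0.239 and 0.390 FPKM. It reached 24.2, 38.5, 63.6 and 34.1 FPKM in IMQ + NS skin. Control replicate 2, the sample that stood apart, was the one control above 1 FPKM. Klk13 had the largest rise of the members, a log2 fold change of 5.72 (SE 0.63, limma adjusted p = 0.000137), and without control replicate 2 it was 6.41.

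Klk14, which encodes a trypsin-like protease of the stratum corneum, was at 0.0115, 0.254, 0.0943 and 0.0119 FPKM in controls and at 1.89, 2.36, 8.71 and 3.72 FPKM in IMQ + NS skin. All IMQ + NS samples exceeded all controls, but 3 of the 4 control values lie below the constant of 0.1 added before the logarithm. Its log2 fold change of 4.39 (SE 0.53, limma adjusted p = 0.000212) therefore depended on that constant, and was 2.08 with 1 and 5.86 with 0.01. Without control replicate 2 it was 4.74.

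Klk9, one of the less studied members, was at 3.50, 2.09, 4.46 and 5.80 FPKM in controls and at 32.1, 47.9, 69.4 and 38.3 FPKM in IMQ + NS skin. The rise was 11.8-fold (log2 fold change 3.56, SE 0.33, limma adjusted p = 5.16e-05), with no overlap. Klk7, the chymotrypsin-like protease that cuts corneodesmosin and desmocollin 1, went from 35.7, 51.0, 48.6 and 47.4 FPKM to 194, 169, 280.3 and 181 FPKM. Here too no lesional sample reached down to the controls, and the log2 fold change was 2.16 (SE 0.17, adjusted p = 2.53e-05 in limma).

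Klk8, or neuropsin, a trypsin-like protease of epidermis and hippocampus, varied little among controls, at 16.9, 17.0, 15.2 and 17.3 FPKM. In IMQ + NS skin it stood at 52.3, 66.3, 97.6 and 48.3 FPKM, a log2 fold change of 1.93 (SE 0.20, limma adjusted p = 9.51e-05). Every lesional value was above every control. Klk10, first described as a gene of normal epithelial cells, had 26.3, 54.8, 30.7 and 32.3 FPKM in controls and 111, 77.4, 139 and 109 FPKM in IMQ + NS skin. Control replicate 2 was the highest control again, still below the lowest lesional sample, and the log2 fold change was 1.62 (SE 0.25, limma adjusted p = 0.000675).

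The 3 members that were not called were Klk11, Klk5 and Spink5. Klk11 was at 4.64, 5.35, 7.43 and 7.64 FPKM in controls and at 10.01, 13.2, 15.7 and 8.57 FPKM in IMQ + NS skin, without overlap. Its log2 fold change of 0.90 (SE 0.23) had an adjusted p of 0.00914 in limma and fell short of the fold limit. It passed the limit without control replicate 4, at 1.01, and without IMQ + NS replicate 4, at 1.05.

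Klk5, the trypsin-like protease that can activate itself and the zymogens of KLK7 and KLK14, was at 21.3, 21.1, 35.1 and 35.1 FPKM in controls and at 33.8, 30.2, 37.2 and 27.4 FPKM in IMQ + NS skin. The groups overlapped over most of their range. The log2 fold change was 0.23, with a 95% confidence interval from -0.23 to 0.68 and a limma adjusted p of 0.353.

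Spink5, at chr18:43963235-44022501 on the + strand, had 35.9, 27.4, 48.9 and 51.5 FPKM in controls and 43.6, 36.9, 49.9 and 33.2 FPKM in IMQ + NS skin. The mean was 40.9 FPKM in both groups. Its log2 fold change of 0.02 had an interval from -0.46 to 0.51 (limma adjusted p = 0.931). The sign of this small value turned under another scaling of the samples, as given in the closing section.

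**Figure D2:**
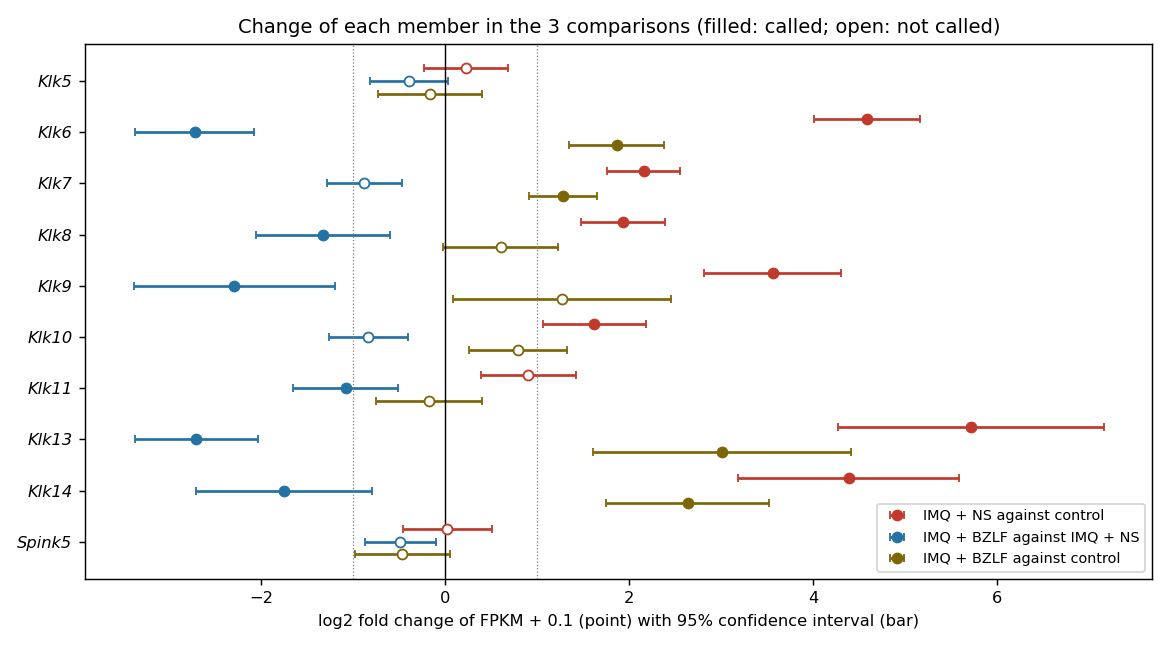
Log2 fold change of FPKM + 0.1 for each member, with the 95% confidence interval from limma, in the 3 comparisons; filled points were called and open points were not, and dotted lines mark the fold limit of 1. Klk6, Klk13 and Klk14 lie farthest to the right in IMQ + NS against control, and the intervals of Klk5 and Spink5 include 0 there.

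IMQ + BZLF was set against IMQ + NS to ask how the members differed when the formula covered the lesion. Of the 10 members 0 were higher and 6 were lower: Klk6, Klk8, Klk9, Klk11, Klk13 and Klk14. Over all genes tested 0.321% were called higher and 2.20% lower. All 4 IMQ + BZLF samples lay below all 4 IMQ + NS samples for 7 members, against 10.9% of all genes. At an unadjusted p under 0.05, limma had 9 members lower and 0 higher, against 14.8% and 7.96% of all genes tested. The median log2 fold change of the members was -1.21, beside -0.023 over all genes tested. This comparison and that of IMQ + NS with control share the IMQ + NS samples, so a value that is high there by chance would raise one and lower the other.

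Klk6 and Klk13 were the members whose fall was called under all 19 alternative settings, those that leave out 1 sample included. In IMQ + BZLF skin Klk6 was at 17.3, 32.6, 27.3 and 34.5 FPKM, every sample far below the 133 FPKM of the lowest IMQ + NS sample. It fell by 2.72 on the log2 scale (SE 0.29, limma adjusted p = 0.00157), to a 6.59-fold lower level. Klk13 was at 3.68, 6.42, 7.60 and 5.87 FPKM, also without overlap, and fell by 2.70 (SE 0.30, limma adjusted p = 0.00183).

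Klk9 in IMQ + BZLF skin was at 3.44, 7.22, 18.7 and 14.6 FPKM, the widest relative spread of the members in this group. The highest of these lay below the lowest IMQ + NS sample, and Klk9 fell by 2.29 (SE 0.48, limma adjusted p = 0.0263). Klk14 was at 1.19, 0.948, 0.643 and 1.18 FPKM against a lowest IMQ + NS value of 1.89, and fell by 1.75 (SE 0.42, limma adjusted p = 0.0432). Klk8 was at 15.9, 22.4, 46.4 and 24.4 FPKM. Replicate 3 of IMQ + BZLF came close to the lowest IMQ + NS sample, at 48.3 FPKM, and Klk8 fell by 1.33 (SE 0.32, limma adjusted p = 0.0435).

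Klk11 was at 3.57, 5.29, 8.002 and 5.66 FPKM in IMQ + BZLF skin, below the 8.57 FPKM of the lowest IMQ + NS sample. It fell by 1.08 (SE 0.25, limma adjusted p = 0.0385), although it had not been called in IMQ + NS against control. The calls of Klk8, Klk9, Klk11 and Klk14 were close to the threshold. The count of 6 came to 3 without IMQ + BZLF replicate 1 or 4 or without IMQ + NS replicate 3 or 4, and to 2 without IMQ + BZLF replicate 2 or IMQ + NS replicate 2.

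Klk7 at 85.5, 138, 119 and 104 FPKM and Klk10 at 50.9, 81.3, 54.9 and 56.3 FPKM had an adjusted p below the threshold but a log2 fold change within the limit. For Klk7 the value was -0.88 (SE 0.18, limma adjusted p = 0.0245), and the groups did not overlap. For Klk10 it was -0.84 (SE 0.19, limma adjusted p = 0.0356), and IMQ + BZLF replicate 2 lay above the lowest IMQ + NS sample.

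Klk5 was at 17.1, 25.4, 34.2 and 23.8 FPKM in IMQ + BZLF skin, overlapping the IMQ + NS samples. Its log2 fold change was -0.39 with an interval from -0.81 to 0.03 (limma adjusted p = 0.255). Spink5 was at 22.4, 38.2, 29.2 and 27.2 FPKM, a log2 fold change of -0.49 with an interval from -0.87 to -0.10. The adjusted p of Spink5 was 0.131 in limma, so neither gene was called.

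The comparison of IMQ + BZLF with control shows where the members stood relative to control skin, for which the methods name neither imiquimod nor a cover. Klk6, Klk7, Klk13 and Klk14 were higher, 4 of the 10, and 0 were lower, against 9.65% and 10.1% of all genes tested. At an unadjusted p under 0.05, limma had 6 higher and 0 lower, against 27.4% and 32.2% of all genes tested. The members' median log2 fold change was 1.03, beside -0.018 over all genes tested. Klk6 was 3.65-fold higher (log2 fold change 1.87, SE 0.23, limma adjusted p = 0.000333) and Klk7 2.43-fold (1.28, SE 0.16, limma adjusted p = 0.00042), each without overlap. Klk13 had a log2 fold change of 3.01 (SE 0.62, limma adjusted p = 0.00375), and 3.70 without control replicate 2.

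Klk14 had a log2 fold change of 2.64 over control (SE 0.39, limma adjusted p = 0.000805), which was 0.86 and no longer called when 1 was added before the logarithm, and 2.99 without control replicate 2. Klk9 at 1.27 missed the threshold (limma adjusted p = 0.0675) and passed it without IMQ + BZLF replicate 1, at 1.73. Klk10 at 0.79 (limma adjusted p = 0.0207) was under the fold limit and passed it without control replicate 2, at 1.01. The count of members higher than control was 5 in either case. For Klk8 the interval ran from -0.02 to 1.23 and for Klk11 from -0.75 to 0.40, with adjusted p of 0.0938 and 0.580 in limma. Klk5 and Spink5 had intervals from -0.73 to 0.41 and from -0.98 to 0.05.

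Klk6 and Klk5, which are neighbours on the chromosome, had log2 fold changes of 4.59 and 0.23 in IMQ + NS against control, and the difference between them was not tested. Klk12 went from a mean of 0.295 FPKM in controls to 2.66 in IMQ + NS skin and 0.598 in IMQ + BZLF skin, and was called higher (log2 fold change 2.88, limma adjusted p = 0.000911) and then lower (-1.95, limma adjusted p = 0.0145). Klk15, beyond Klk5, rose as well, from 0.00944 to 1.45 FPKM (log2 fold change 3.76, limma adjusted p = 1.46e-05). It stayed at 1.61 FPKM in IMQ + BZLF skin, with a log2 fold change of 0.18 against IMQ + NS and an interval from -0.44 to 0.79. Klk1, the tissue kallikrein, was at 6.61, 2.94 and 4.32 FPKM in the 3 groups and was not called. Of the 17 other kallikrein genes listed, 11 were in the table and 3 of these passed the filter. Reads of the near-identical Klk1b genes, none of which passed, may have been split among copies.

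**Figure D3:**
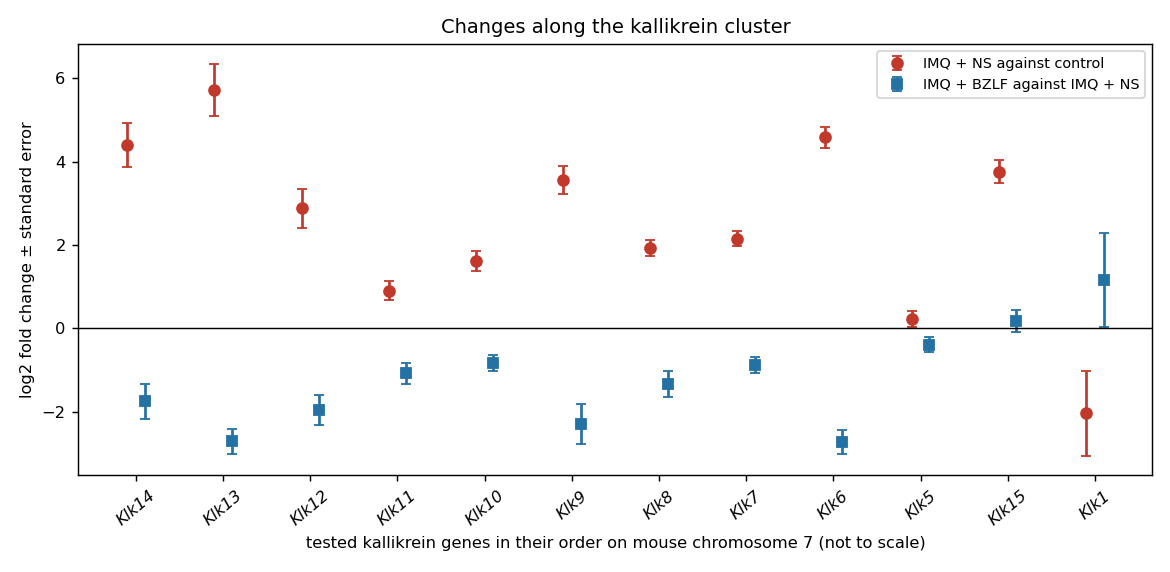
Log2 fold change ± standard error of the 12 tested kallikrein genes in their order on chromosome 7, for IMQ + NS against control (circles) and IMQ + BZLF against IMQ + NS (squares). In the first comparison Klk6 at 4.59 is next to Klk5 at 0.23, and Klk15 stays near 0 in the second comparison.

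Added up, the 9 proteases came to 116, 163, 148 and 155 FPKM in controls, to 599, 578, 1009 and 635 FPKM in IMQ + NS skin and to 199, 319, 317 and 271 FPKM in IMQ + BZLF skin. The 3 groups did not overlap, and the IMQ + BZLF samples lay between the other two. The makeup of the sum differed too. Klk6 made up a mean of 5.15% ± 0.938 (SD, n = 4) of it in controls, 26.2% ± 3.52 in IMQ + NS skin and 10.1% ± 1.94 in IMQ + BZLF skin. Klk5, the activating protease, made up 19.4% ± 4.91, 4.72% ± 0.881 and 9.03% ± 1.22. Klk7 kept a share of 31.5% ± 1.03 and 29.5% ± 2.05 in controls and IMQ + NS skin and had 40.6% ± 2.91 in IMQ + BZLF skin. Klk13 had 0.642% ± 0.763, 5.59% ± 1.17 and 2.11% ± 0.232, and its share in controls was 0.263% ± 0.107 (SD, n = 3) without control replicate 2.

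Set against the transcript of the inhibitor, the 9 proteases came to 3.22, 5.93, 3.02 and 3.004 FPKM per FPKM of Spink5 in controls. The ratio was 13.8, 15.7, 20.2 and 19.1 in IMQ + NS skin and 8.85, 8.36, 10.9 and 9.94 in IMQ + BZLF skin. No group overlapped another, and the ratio in IMQ + BZLF skin was above that of every control. The ratio of Klk7 to Spink5 averaged 1.19, 5.03 and 3.83 in the 3 groups, and that of Klk6 to Spink5 0.195, 4.58 and 0.956. Klk5 kept close to Spink5 throughout, at 0.690 ± 0.0740, 0.792 ± 0.0379 and 0.867 ± 0.219. These are ratios of transcripts and say nothing of protein or of enzyme activity; no p is given for sums over the members.

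**Figure D4:**
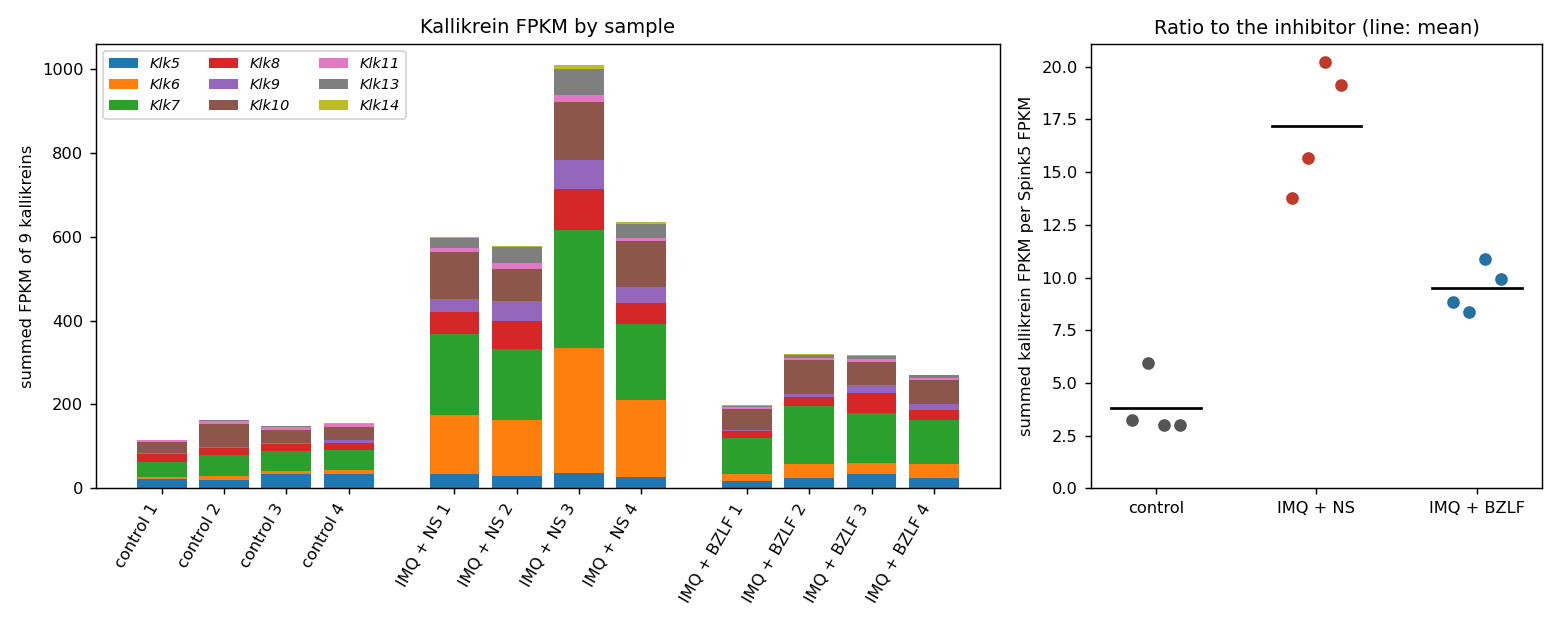
Left, summed FPKM of the 9 kallikreins in each sample, stacked by gene; right, the same sum per FPKM of Spink5, with the group mean as a line. IMQ + NS replicate 3 reaches 1009 FPKM, the ratio lies between 13.8 and 20.2 in IMQ + NS skin, and control replicate 2 at 5.93 is above the other controls.

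Over the 12 samples, log2 levels of Klk6, Klk7, Klk8, Klk9, Klk10, Klk13 and Klk14 correlated with each other at Pearson's r from 0.777 to 0.961 in the 21 pairs. Klk5 correlated most with Klk11, at 0.825, and with Spink5, at 0.793. These values describe samples that share 3 groups. With each group centred on its mean, Klk5 still had 0.887 with Klk11 and 0.793 with Spink5, and it had 0.793 with Klk9 as well. The 21 pairs above then ranged from -0.175 (Klk9 and Klk10) to 0.770 (Klk8 and Klk9), with 0.721 for Klk6 and Klk7. Klk5 thus varied within the groups with Spink5, which like Klk5 was called in no comparison. It did so as much with Klk9, which was called higher in IMQ + NS against control.

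Outside the 10, the genes closest to Klk6 over the 12 samples were Lce3b (r = 0.992), Krt6b (0.991) and Sprr2f (0.989), a late cornified envelope gene, a keratin of activated keratinocytes and a small proline-rich protein gene. Klk13 was closest to Dsg3, a desmoglein of the lower epidermis (0.980), with Pde12 and Tes at 0.978 each. For Klk14 they were Tpd52 (0.982), Mab21l3 and Krt6a (0.979 each). Klk7 was nearest to Sptlc1, an enzyme of sphingolipid synthesis, Cstb, a cysteine protease inhibitor, and Slc26a9, at 0.981 each. Klk9 was nearest to Il1f6 (0.979), Glrx (0.976) and Il1f5 (0.970), the first and last of which encode an interleukin 36 cytokine and its antagonist. Klk10 went with the protease gene Prss22 (0.985), Hspa4l and Lpin2, Klk11 with the protease gene Tmprss4 (0.976), Slc25a48 and Gm6551, and Klk8 with Il12rb1 (0.980), Ankk1 and Pycard. Klk5 went with Sdr42e1 (0.952), Alox12b (0.948), a lipoxygenase of the barrier, and Ms4a6b (0.893). Spink5 had the lowest top value of the members, with Col17a1, a basal keratinocyte collagen, at 0.935, and with Itprid2 and Chl1 behind it.

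After each group was centred, the leading gene was Alox12b for Klk5 (0.974), Mydgf for Klk6 (0.906), Srsf5 for Klk7 (0.973), Sh3bgrl3 for Klk8 (0.945) and Rnf166 for Klk9 (0.963). It was Hspa4l for Klk10 (0.954), Il1f8 for Klk11 (0.962), Piga for Klk13 (0.970), Ppard for Klk14 (0.958) and Atp6v1c2 for Spink5 (0.980). Alox12b for Klk5 and Hspa4l for Klk10 were among the closest 3 genes before centring as well. Each is the highest value over all tested genes outside the 10, from 12 samples.

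The proteases that act upstream of the kallikreins rose in IMQ + NS skin and were not called between the IMQ groups. St14 (matriptase) had means of 14.4, 52.7 and 55.4 FPKM in control, IMQ + NS and IMQ + BZLF skin, and Prss8 (prostasin) 11.0, 32.9 and 32.1. With Tmprss13, all 3 activating proteases tested of 5 listed were called higher in IMQ + NS against control and 0 were called by limma in IMQ + BZLF against IMQ + NS, where 1 of the 3, Tmprss13, was lower at an unadjusted p under 0.05. The log2 fold change of St14 in the latter was 0.06, with an interval from -0.24 to 0.36 (limma adjusted p = 0.818). Control replicate 2 had the highest St14 of the controls, 29.6 FPKM against 7.66 to 10.8.

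Among the 7 other protease inhibitors, 3 were called higher in IMQ + NS against control. Spink12, a Kazal inhibitor like Spink5, rose from 0.119, 0.0297, 0.0304 and 0.0306 FPKM in controls to 27.0, 16.9, 33.8 and 19.1 FPKM. It was at 9.19, 15.3, 6.81 and 9.29 FPKM in IMQ + BZLF skin and fell by 1.25 against IMQ + NS (limma adjusted p = 0.0296). Slpi, which encodes a leukocyte protease inhibitor, went from a mean of 1.13 to 25.2 and 6.06 FPKM and fell by 2.01 (limma adjusted p = 0.00157). Spint1, the inhibitor of matriptase, rose from 15.3 to 73.0 FPKM and stood at 80.6 FPKM under BZLF. So 2 of the 7 were called lower in IMQ + BZLF against IMQ + NS, Spink12 and Slpi.

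Of the 7 substrates and receptor genes, 6 were called higher in IMQ + NS against control. In IMQ + BZLF against IMQ + NS limma called 0, and at an unadjusted p under 0.05 it had 1 higher and 2 lower. Cdsn, which encodes corneodesmosin, had means of 91.6, 208 and 208 FPKM, and Dsc1, desmocollin 1, 27.98, 113 and 93.2 FPKM. The Dsg1b paralog of desmoglein 1 went from 6.31 to 22.8 and 11.9 FPKM, with a log2 fold change of -0.92 in the second comparison (limma adjusted p = 0.0043), within the fold limit. Reads may have been split between the similar Dsg1a, Dsg1b and Dsg1c. Camp, the cathelicidin that KLK5 and KLK7 process, was at 1.33, 9.99 and 7.53 FPKM, and F2rl1, a receptor that kallikreins can cleave, at 6.02, 12.1 and 14.4 FPKM. Against control, 4 of the 7 were still called higher in IMQ + BZLF skin, as were 3 of 3 activating proteases and 3 of 7 inhibitors, with 1 inhibitor, Spink6, called lower.

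**Figure D5:**
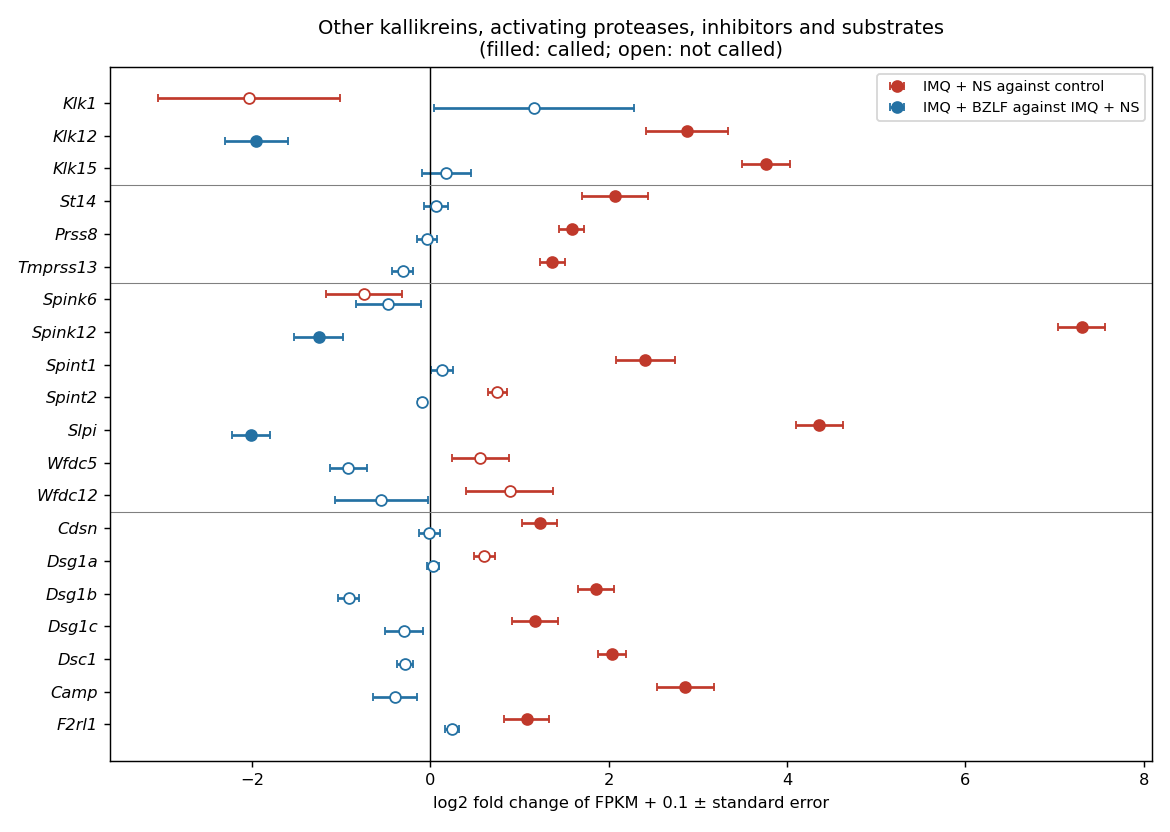
Log2 fold change of FPKM + 0.1 ± standard error for the tested other kallikreins, activating proteases, inhibitors, and substrates and receptor (top to bottom, separated by lines) in 2 comparisons; filled points were called. St14, Prss8, Cdsn and Spint1 rose in IMQ + NS against control and lie near 0 in IMQ + BZLF against IMQ + NS, where Klk12, Slpi and Spink12 were called lower.

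The samples are whole skin, in which fewer cells of a type and less RNA per cell cannot be told apart. Keratinocyte markers were present as the labelled tissue requires, and none was at 0 throughout a group. The summed FPKM of 9 granular keratinocyte markers, the layer that makes kallikreins, ranged from 989 to 2562 in controls, 1684 to 3911 in IMQ + NS and 1133 to 2948 in IMQ + BZLF skin, overlapping in all groups. The single markers moved in opposite directions. In IMQ + NS against control limma called 4 of the 9 higher (Casp14, Flg, Krt1 and Ivl) and 2 lower (Flg2 and Lor). In IMQ + BZLF against IMQ + NS it called 1 higher, Flg2, and 0 lower. At an unadjusted p under 0.05, limma had 2 higher and 2 lower there. The 6 basal keratinocyte markers summed to 1350 to 1820, 3371 to 5460 and 1673 to 2349 FPKM in the 3 groups. In IMQ + NS against control limma called 3 of the 6 higher (Krt5, Krt14 and Trp63) and 0 lower. Krt15 went the other way there, with a log2 fold change of -0.83 (limma adjusted p = 0.000679), within the fold limit. In IMQ + BZLF against IMQ + NS limma called 1 lower, Krt14, and 0 higher. At an unadjusted p under 0.05 it had 4 lower and 1 higher there. The 5 markers of hyperproliferative keratinocytes ranged from 193 to 639, 2365 to 4232 and 1159.9 to 1411, with 5 of 5 called higher in IMQ + NS against control and 3 of 5 called lower under BZLF. Their sum thus ordered the groups as the kallikrein sum did. Krt17 was the largest part of it, at means of 310, 1569 and 1143 FPKM. Neither Krt17 (limma adjusted p = 0.108) nor Mki67 (limma adjusted p = 0.422) was called in IMQ + BZLF against IMQ + NS. Mki67 had means of 22.3 FPKM in IMQ + NS and 20.7 FPKM in IMQ + BZLF skin.

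Neutrophil markers, 9 in all, summed to 38.0 to 57.4 FPKM in controls, 3139 to 9913 in IMQ + NS and 64.5 to 86.2 in IMQ + BZLF skin, with 8 of 9 called higher and then 9 of 9 called lower. S100a8 and S100a9, which activated keratinocytes make as well, held 98.9% to 99.3% of this sum in IMQ + NS skin. The other 7 markers summed to 10.5 to 15.7, 33.1 to 81.8 and 5.26 to 8.64 FPKM in the 3 groups. IMQ + NS replicate 3 was the highest sample both in these markers and in the kallikrein sum. It was also the highest in the sums of hyperproliferative keratinocyte markers, at 4232 FPKM, and basal keratinocyte markers, at 5460 FPKM. Hair follicle markers were higher in IMQ + NS skin than in controls, with 7 of 7 tested inner root sheath genes and 10 of 10 hair shaft genes called. The inner root sheath list summed to 8180 to 10397 FPKM in IMQ + NS and 10100 to 14267 in IMQ + BZLF skin, and limma called 0 of its 7 genes between them, with 3 higher at an unadjusted p under 0.05. Hair shaft markers summed to 15.2 to 311, 6210.2 to 9125 and 8354 to 12823 FPKM, and between the IMQ groups 0 of the 10 were called by limma, or had an unadjusted p under 0.05.

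Other cell types differed between the groups too. In IMQ + NS against control, 5 of 5 skeletal muscle markers (median log2 fold change -2.93), 3 of 5 adipocyte markers (-1.31) and 4 of 8 sebaceous gland markers (-0.83) were called lower, and 4 of 5 melanocyte markers were called higher (2.90). The sebaceous gland markers did not all move one way: 2 of them, Elovl3 (log2 fold change 0.93) and Soat1 (0.51), were higher at an unadjusted p under 0.05 in limma. Skeletal muscle markers summed to 3212 to 8017 FPKM in controls, 609 to 1435 in IMQ + NS and 1043 to 1427 in IMQ + BZLF skin. Of the 5 macrophage and 4 T cell markers tested limma called 0 in this comparison, where 4 and 1 were lower and 1 and 1 higher at an unadjusted p under 0.05. In IMQ + BZLF against IMQ + NS, limma called 1 macrophage marker lower and 0 of the other 5 lists. There, at an unadjusted p under 0.05, 2 sebaceous gland, 2 adipocyte and 2 skeletal muscle markers were higher, 1 T cell marker was lower and 0 melanocyte markers passed. The part of keratinocyte number or layer, of infiltrating cells, of muscle, fat, sebaceous gland and melanocytes, and of the hair cycle in the kallikrein values was not tested.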

How the data were processed

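The data were RNA-seq profiles of 12 back skin samples, assigned to 3 groups of 4 by their GEO labels. The authors deposited FPKM values, 1 per gene and sample, normalized for transcript length and library size, without pooling of replicates. The study's methods name Bowtie2 and eXpress with a ribosomal depletion kit, while the submitters' processing notes name fastp, HISAT2, HTSeq and R 3.2.0 with mm10; which made the table is not given in the sources used here. The values are FPKM and not counts. Of 15810 low values, 32.3% lay within 0.05 of a whole multiple of a gene's smallest value. A gene's values come from samples that can differ in library size, so this share cannot tell whether they stand for whole reads. Read numbers behind the values were not recovered here, so no counting error is given for the depth. The 4 replicates give the precision of a mean.

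The 15288 of 18505 genes whose mean reached 0.1 FPKM were tested on log2(FPKM + 0.1) with limma 3.58.1 in R 4.3.3, with trended moderated variances, in a separate fit for each pair of groups, and the Benjamini-Hochberg adjustment ran over all genes tested. The constant understates the change of low genes. Coordinates came from GENCODE M21 and promoters from RefSeq; figures were drawn in Python 3.11.15. The code was tested on simulated data. Alternatives were other constants, filters, scalings and variance models, a replicate block and leaving out each sample.

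All 10 members were named. Pathway genes and other kallikreins were named if called or at a mean FPKM of at least 1, as counts with examples, and the 3 most similar genes of each member by Pearson's r. The members and lists were chosen with earlier results of these data known. No batch is labelled. Protein sequences were not used here.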

Additional observations from a re-analysis of the deposited data

Results flagged for a closer look

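Dixon's ratio was computed in 36 groups of 4 values, and chance flags about 1 in 20 such groups. In 3 of them 1 sample lay far from the other 3. Klk13 in control replicate 2 was at 2.89 FPKM, against 0.239 to 0.434 FPKM in the other controls. The 9 kallikreins summed to 1009 FPKM in IMQ + NS replicate 3, against 578 to 635 FPKM in the other IMQ + NS samples. The sum per FPKM of Spink5 was 5.93 in control replicate 2, against 3.004 to 3.22 in the other controls. Control replicate 2 is also the control with inner root sheath markers at 1959 FPKM and hyperproliferative keratinocyte markers at 639 FPKM. IMQ + NS replicate 3 is the sample with the highest neutrophil markers, at 9913 FPKM, of which S100a8 and S100a9 held 9831. It was also the highest in hyperproliferative keratinocyte markers, at 4232 FPKM, and in basal keratinocyte markers, at 5460 FPKM. The part of these in the values was not tested.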

How the results depend on the processing

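Of the settings tried for single members, 518 kept the direction and the side of the threshold, 37 lost a call, 6 gained one and 9 turned the sign of a value near 0. The 6 members lower in IMQ + BZLF against IMQ + NS became 2 without a filter on low values and 3 with variances without a trend; leaving out 1 sample gave 2 to 5. Klk14 lost this call in 13 of 19 settings, Klk8 and Klk11 in 9 each and Klk9 in 5. The 7 members higher in IMQ + NS against control became 8 at most when 1 sample was left out, and the 4 higher in IMQ + BZLF against control became 5 at most. Spink5 in IMQ + NS against control was -0.017 with median ratio scaling, -0.11 with equal FPKM sums and -0.035 with quantile normalization, and -0.15 to 0.15 when 1 sample was left out. In IMQ + BZLF against control, leaving out 1 sample gave Klk5 -0.32 to 0.0086 and Klk11 -0.36 to 0.020. Equal FPKM sums moved the median of all genes in IMQ + NS against control from 0.053 to -0.074. No label says what a replicate number marks. Same-numbered samples' deviations from the group means correlated at -0.15 to 0.26, above 0.1 in 6 of 12 pairs (those numbered 3 and 4). A sample correlated best with its own number in 14 of 24 cases, where random matching among 4 samples would give 1 in 4. Whether same-numbered samples shared a handling step was not tested. For want of a label the main tests did not pair the samples. With a replicate block, 7, 5 and 5 members were called in the 3 comparisons: Klk14 was lost in IMQ + BZLF against IMQ + NS (limma adjusted p = 0.0743) and Klk9 gained in IMQ + BZLF against control (limma adjusted p = 0.0257). Beyond fewer samples or more genes tested, the cause of a changed call was not tested. Read numbers were not recovered here, so low values, such as Klk13 and Klk14 in controls, are given without a counting error. Such values can rest on few reads.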
